A study of Mus musculus with 70 samples.

Results

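The genes described here are 10 imprinted genes with roles in growth, *Dlk1*, *Meg3*, *Peg3*, *Ndn*, *Plagl1*, *Mest*, *Grb10*, *Gnas*, *Igf2* and *H19*. They were taken by symbol from the 22835 gene symbols of the pituitary RNA-seq table, each represented by its transcript with the highest mean level. All 10 were found, and all 10 were among the 13145 genes with more than 1 CPM in every library, which were tested. CPM scales the reads of every library to a common total and is not divided by transcript length, so a level is compared between groups and never between genes. The RNA-seq compared wild-type and *Thrb*-KO adult male mice, 2 to 4 months old, on a C57BL/6J background, and *Thrb*-KO mice lack the T3 receptor TRβ. All mice drank water with 0.05% methimazole (MMI) and 1% KClO4, over 4 or 5 weeks, which makes them hypothyroid. The hyperthyroid groups received 0.5 µg/ml T3 as well during the last week, so both conditions carried the MMI and KClO4 exposure. There were 4 hypothyroid and 4 hyperthyroid wild-type (WT) libraries, and 5 of each condition in *Thrb*-KO mice, each library from 3 pooled pituitaries. Receptor binding came from untreated pituitary and cerebral cortex of mice with a biotinylated tag on TRβ (HAB;BirA) against control samples titled BirA, which the methods describe as mice with the biotin ligase alone. The genotype label of all 6 of these untreated control samples names the HAB allele as well, so their genotype rests on the titles, and this doubt holds for every HAB;BirA and BirA read count and fold given here. T3-regulated open chromatin came from nuclei of pituitary cells labelled through a *Thrb* b2Cre driver in hypothyroid and hyperthyroid mice, so it covers the cells in which that driver has been active.

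Imprinted genes are expressed mainly or wholly from the copy inherited from one parent, and many of them lie in clusters governed by a shared control region that is methylated on a single parental copy. Genes expressed from the paternal copy, such as *Dlk1*, *Peg3*, *Plagl1*, *Mest* and *Igf2*, are often associated with growth, and genes expressed from the maternal copy, such as *Grb10* and *H19*, often with its restraint. Several are abundant in the fetus and decline in most tissues after birth, while the adult pituitary keeps expressing *Dlk1* and *Meg3*. The reads do not separate the parental copies. In whole pituitary, fewer cells of a type and less RNA per cell cannot be told apart.

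Recovered totals, summed over all transcripts, were 21453548 to 55273749 per library (median 34673225). A read that matches several transcripts is counted in each, so these totals are not numbers of sequenced reads. The *Thrb* RNA level was 257 ± 27.3 CPM (SD, n = 4) in hypothyroid WT and 271 ± 20.1 CPM (n = 5) in hypothyroid *Thrb*-KO libraries, so the RNA table, which gives totals over whole transcripts, did not show the deletion and is no check of the genotype labels. With T3 it was 104 ± 22.8 CPM (n = 4) in WT and 260 ± 32.0 CPM (n = 5) in *Thrb*-KO libraries. Replicates 1 and 2 of every group formed a set apart from replicates 3 to 5, with *Lars2* at 2571 to 3420 CPM in the former and 53.2 to 95.1 CPM in the latter. Hyperthyroid WT replicate 3 stood apart from its group, with a scaling factor of 0.849 by the trimmed mean of M values (TMM), against 0.982 to 1.04 in the others, and its group held the lowest correlation between libraries of a group (r = 0.915). For some results, values without replicate 3 or by library set are given as well, and the others are given for all libraries only.

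*Dlk1*, a transmembrane protein of the Delta family that marks hormone-producing and progenitor cells, showed the largest T3 response of the 10 genes. Its RNA level in the hypothyroid WT libraries was 4354, 3599, 4511 and 4635 CPM. In the hyperthyroid WT libraries it was 1605, 1360, 1246 and 1501 CPM. All 4 hyperthyroid libraries lay below all 4 hypothyroid libraries, a fall by 1.58 on the log2(CPM + 1) scale, or 2.99-fold (SE 0.11, limma adjusted p = 7.95e-09). Only 73 of the 13145 tested genes fell further. In hypothyroid *Thrb*-KO libraries *Dlk1* was at 3427, 3356, 3755, 3338 and 3888 CPM. In hyperthyroid *Thrb*-KO libraries it was at 2630, 2426, 2718, 2353 and 2892 CPM. The *Thrb*-KO groups did not overlap either, but the difference was smaller, −0.45 on the log2 scale (SE 0.10, limma adjusted p = 0.0199), which is below the 1.5-fold limit set for a call. The T3 responses of the genotypes differed by 1.13 on the log2 scale (SE 0.15, limma adjusted p = 0.000118). The order of the *Dlk1* level was hypothyroid WT (4275 ± 465 CPM, SD, n = 4), hypothyroid *Thrb*-KO (3553 ± 252 CPM, n = 5), hyperthyroid *Thrb*-KO (2604 ± 219 CPM, n = 5) and hyperthyroid WT (1428 ± 157 CPM, n = 4). The 2 hypothyroid groups overlapped and did not pass the test against each other (log2 difference −0.26, 95% interval −0.49 to −0.04, limma adjusted p = 0.176, and 0.0493 with the replicate number as a block, under the fold limit). The hyperthyroid *Thrb*-KO libraries all lay above the hyperthyroid WT libraries, by 0.87 on the log2 scale (SE 0.11, limma adjusted p = 1.74e-05). Within replicates 1 and 2 alone the WT response was −1.42, and within replicates 3 to 5 alone it was −1.74. All 5 listed *Dlk1* transcripts fell by similar amounts in WT libraries (1.57 to 1.59 on the log2 scale), although a read is counted in every transcript that it matches, so they share reads.

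**Figure D1:**
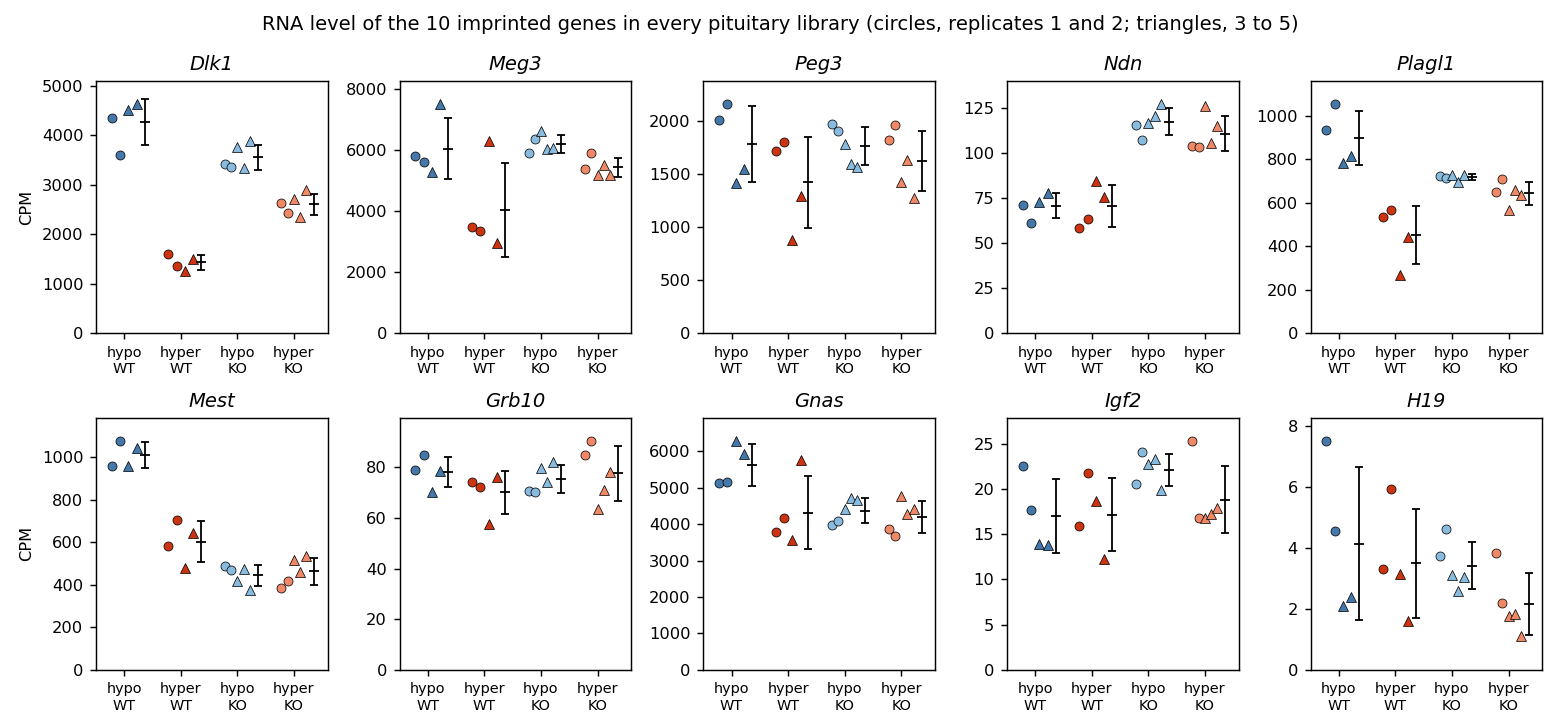
RNA level in CPM (y axis, linear, from 0) of the 10 imprinted genes in every pituitary library by group (x axis: hypothyroid or hyperthyroid, WT n = 4, *Thrb*-KO n = 5). Circles are replicates 1 and 2, triangles replicates 3 to 5, and the black bar beside each group is the mean ± SD. *Dlk1* falls from 3599 to 4635 CPM to 1246 to 1605 CPM with T3 in WT libraries, and lies at 3338 to 3888 CPM without and 2353 to 2892 CPM with T3 in *Thrb*-KO libraries, and 1 hyperthyroid WT library holds *Meg3* at 6297 CPM.

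*Dlk1* lies on chromosome 12 of mm9, from 110691033 to 110701546 on the plus strand, and *Meg3* downstream of it from 110779211 to 110809936 on the same strand. The pituitary TRβ-HAB list held 1 peak within 20 kb of *Dlk1*, upstream of the gene, with 45 HAB;BirA reads against 4 BirA reads (fold 9.39 after the authors' scaling). A further peak lay between the genes at chr12:110747651-110748150, 46105 bp past the end of *Dlk1* and 31061 bp before the start of *Meg3*. It held 65 HAB;BirA reads and 0 BirA reads. Of the 8051 pituitary peaks, 3.79% had more HAB;BirA reads and 0.0994% had a higher fold. A fold against 0 control reads depends on how the caller treats the empty control. Both sites were outside annotated genes. The middle 300 bases of the peak between the genes are printed from the mm9 plus strand, since it is the receptor site nearest to *Meg3*. Capitals mark the best match to a direct repeat of AGGTCA with a spacer of 4 bases (DR4), the arrangement that T3 receptors are known to bind, searched on both strands. The site matched 9 of the 12 compared bases.
*Dlk1*-*Meg3* intergenic site, chr12:110747751-110748050: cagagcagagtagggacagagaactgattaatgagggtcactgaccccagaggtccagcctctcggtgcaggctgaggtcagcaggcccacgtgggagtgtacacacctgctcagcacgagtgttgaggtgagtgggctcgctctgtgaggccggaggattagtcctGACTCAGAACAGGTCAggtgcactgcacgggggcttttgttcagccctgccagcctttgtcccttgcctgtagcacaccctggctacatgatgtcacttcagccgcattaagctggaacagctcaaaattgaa
This peak held 2 exact copies of AGGTCA, counting both strands, but no DR4 with at most 2 mismatches, which 20.9% of the pituitary peaks did. The nearest T3-regulated ATAC peak was 492355 bp from *Dlk1*, and the nearest cortex TRβ-HAB peak 52883 bp.

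*Meg3*, the maternally expressed long non-coding RNA of the same cluster, was also lower with T3 in WT libraries. Its level was 5794, 5592, 5271 and 7501 CPM in the hypothyroid WT libraries. In the hyperthyroid WT libraries it was 3483, 3355, 6297 and 2942 CPM. Replicate 3, the library that stood apart, lay within the hypothyroid range and the other 3 lay below it. The log2 difference was −0.64 (SE 0.18, limma adjusted p = 0.0156), and it was −0.88 without replicate 3 (adjusted p = 2.59e-05). The call did not pass edgeR's quasi-likelihood test on the recovered reads with TMM (log2 difference −0.49, adjusted p = 0.136). *Meg3* was at 5896, 6364, 6601, 6032 and 6045 CPM in hypothyroid *Thrb*-KO libraries. It was at 5364, 5892, 5171, 5517 and 5176 CPM in hyperthyroid *Thrb*-KO libraries, which all lay below the hypothyroid ones by a small margin (log2 difference −0.19, 95% interval −0.53 to 0.15, limma adjusted p = 1.00). The difference between the T3 responses of the genotypes was 0.45 (SE 0.24, limma adjusted p = 0.431) with all libraries and 0.69 (adjusted p = 0.00788) without hyperthyroid WT replicate 3, which therefore decides that call. In the hyperthyroid condition *Thrb*-KO minus WT was 0.50 (adjusted p = 0.0671), and 0.74 (adjusted p = 0.000204) without the same library.

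The 3 listed *Meg3* transcripts did not share the high value of hyperthyroid WT replicate 3. NR_003633, used above, and NR_027651 were highest in that library (6297 and 4749 CPM). NR_027652 was not, with 840, 737, 883 and 938 CPM in the hyperthyroid WT libraries against 1309, 1121, 1536 and 1443 CPM in the hypothyroid ones. These groups did not overlap, and NR_027652 fell by 0.67 on the log2 scale (limma over 18140 transcripts, of which 9.29% were called, adjusted p = 0.000742). Its responses differed between the genotypes by 0.61 (adjusted p = 0.0420). It was chosen for mention after its values were seen. *Meg3* shares 3096 bp with Gm17639 on the opposite strand, and the libraries do not keep strand.

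The neighbours of *Dlk1* and *Meg3* on chromosome 12 moved in the same direction in WT libraries. Of the 6 tested genes of the *Dlk1*-*Dio3* cluster, 5 fell with T3 and none rose, where 5.59% of all tested genes fell. The 5 include *Dlk1* and *Meg3*, and the call for *Meg3* was lost with TMM scaling, edgeR and DESeq2. *Rtl1*, a retrotransposon-derived gene expressed from the paternal copy, went from 84.1 to 90.4 CPM in hypothyroid to 20.7 to 42.9 CPM in hyperthyroid WT libraries, a fall by 1.60 on the log2 scale (SE 0.18, limma adjusted p = 2.69e-06). The non-coding *Mirg* fell by 1.11 (SE 0.16, adjusted p = 6.41e-05) and *Rian*, host of small nucleolar RNAs, by 0.69 (SE 0.10, adjusted p = 4.99e-05). *Rian* lay between 478 and 504 CPM in all 4 hyperthyroid WT libraries, replicate 3 included. The sixth gene, *Begain*, differed by −0.17 and did not pass. In *Thrb*-KO libraries none of the 6 passed, with log2 differences of −0.40 for *Rtl1*, −0.07 for *Mirg* and −0.12 for *Rian*. The T3 responses of *Rtl1* and *Mirg* differed between the genotypes by 1.20 (adjusted p = 0.00475) and 1.03 (adjusted p = 0.00715), and that of *Rian* by 0.57 (adjusted p = 0.0146), under the fold limit. *Rtl1* overlaps 6 microRNA genes on the opposite strand. *Dio3*, the deiodinase at the far end of the cluster that inactivates T3, was at 0.0230 to 1.26 CPM and was not tested. Its mean was 0.323 CPM in hypothyroid and 0.926 CPM in hyperthyroid WT libraries. A pituitary TRβ-HAB peak with a DR4 (2 copies of AGGTCA, 4 bases apart) of at most 1 mismatch lay 23128 bp upstream of *Dio3*, at chr12:111493851-111494150. Such a repeat was held by 3.94% of all pituitary peaks. This peak was the nearest of 4 within 100 kb of *Dio3*, and 0 lay within 20 kb.

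*Plagl1*, a zinc finger transcription factor that restrains cell division, was 2.05-fold lower with T3 in WT libraries. Its level was 933, 1054, 780 and 815 CPM in hypothyroid WT libraries. It was 534, 564, 265 and 440 CPM in hyperthyroid WT libraries, all below the hypothyroid ones, with replicate 3 the lowest. The log2 difference was −1.04 (SE 0.17, limma adjusted p = 0.000193) and −0.80 without replicate 3 (adjusted p = 2.36e-05). In *Thrb*-KO libraries *Plagl1* was at 694 to 728 CPM in the hypothyroid and 564 to 707 CPM in the hyperthyroid condition, overlapping groups with a log2 difference of −0.16 (95% interval −0.48 to 0.16, limma adjusted p = 1.00). The responses differed by 0.88 (SE 0.23, limma adjusted p = 0.0282), but with any 1 of 5 libraries left out the adjusted p was 0.0504 to 0.0620. Without hyperthyroid WT replicate 3 it was 0.64 (adjusted p = 0.00657). In the hyperthyroid condition *Thrb*-KO minus WT was 0.57 (adjusted p = 0.0271), just under the 1.5-fold limit of 0.58, and it was 0.33 (adjusted p = 0.0405) without hyperthyroid WT replicate 3.

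*Peg3*, another zinc finger protein expressed from the paternal copy, was at 2010, 2163, 1418 and 1551 CPM in hypothyroid WT libraries. In hyperthyroid WT libraries it was at 1718, 1807, 875 and 1290 CPM. The groups overlapped, and replicates 1 and 2 were above replicates 3 and 4 in both. The log2 difference was −0.36 (95% interval −0.79 to 0.06, limma adjusted p = 0.260), and −0.15 without replicate 3. *Peg3* was lower with T3 in all 4 pairs of same-numbered WT libraries, although the numbers are not shown to pair libraries one by one. With the replicate number as a block the same difference had an adjusted p of 0.0333 in limma, still under the fold limit. Its neighbour *Usp29* fell by 0.65 in WT libraries (SE 0.08). *Peg3* lies on chromosome 7 from 6656603 to 6683132 on the minus strand and was the only one of the 10 genes with a T3-regulated ATAC peak within 20 kb. That peak was at chr7:6667055-6667762, in an intron 15370 bp from the start (adjusted p = 1.76e-07 in the authors' list, which gives no direction). A TRβ-HAB peak of 100 bases with 10 HAB;BirA and 0 BirA reads lay 19 bp upstream of the annotated start. This peak was the closest to a start among the 10 genes. Its read count was low for the list, since 97.7% of the pituitary peaks had more HAB;BirA reads. A second TRβ-HAB peak, at chr7:6701951-6702200, lay 18819 bp upstream, with 15 HAB;BirA reads and 1 BirA read. The peak at the start is printed from the mm9 plus strand, with the best DR4 match (7 of 12 bases, on the minus strand) in capitals.
*Peg3* start site, chr7:6683151-6683250: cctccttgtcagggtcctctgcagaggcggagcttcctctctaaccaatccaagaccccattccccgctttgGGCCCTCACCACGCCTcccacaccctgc

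*Mest*, an enzyme of the alpha/beta hydrolase family that is expressed from the paternal copy, differed with both genotype and T3. Its level was 958, 1079, 958 and 1045 CPM in hypothyroid WT libraries. In hyperthyroid WT libraries it was 582, 706, 480 and 645 CPM. The groups did not overlap, with a log2 difference of −0.75 (SE 0.13, limma adjusted p = 0.000254). *Mest* was at 489, 470, 415, 472 and 375 CPM in hypothyroid *Thrb*-KO libraries. It was at 385, 416, 517, 460 and 535 CPM in hyperthyroid *Thrb*-KO libraries. The hypothyroid *Thrb*-KO libraries all lay below the hypothyroid WT libraries, by 1.19 on the log2 scale or 2.28-fold (SE 0.12, limma adjusted p = 3.14e-06), and only 50 tested genes were lower by more. Within *Thrb*-KO mice T3 made a log2 difference of 0.05 (95% interval −0.18 to 0.29, adjusted p = 1.00). That value was −0.26 in replicates 1 and 2 and 0.26 in replicates 3 to 5. The difference between the responses, 0.81 with all libraries (SE 0.17, limma adjusted p = 0.00692), was 0.40 in replicates 1 and 2 alone (adjusted p = 0.0614) and 1.11 in replicates 3 to 5 alone. In the hyperthyroid condition *Thrb*-KO minus WT was −0.38 (adjusted p = 0.0480), under the fold limit. *Copg2*, a coat protein gene that overlaps the 3′ end of *Mest* by 904 bp on the opposite strand, fell by 0.65 with T3 in WT libraries and was lower by 0.74 in hypothyroid *Thrb*-KO libraries. The reads of the shared stretch cannot be assigned to a strand.

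*Ndn*, a protein of the MAGE family encoded in the Prader-Willi region, differed with genotype and not detectably with T3. Its level was 71.1, 61.3, 72.8 and 78.2 CPM in hypothyroid WT libraries. In hypothyroid *Thrb*-KO libraries it was 116, 107, 117, 121 and 128 CPM, all above the WT values. The log2 difference was 0.73 (SE 0.10, limma adjusted p = 0.000156), and only 77 tested genes were higher by more. In hyperthyroid WT libraries *Ndn* was at 58.7, 63.7, 84.8 and 76.0 CPM. In hyperthyroid *Thrb*-KO libraries it was at 104, 104, 126, 106 and 116 CPM, again with no overlap (log2 difference 0.65, SE 0.10, adjusted p = 0.000262). With TMM scaling this second difference was 0.57 (adjusted p = 0.00277), under the fold limit. The T3 response was −0.01 in WT (95% interval −0.24 to 0.22) and −0.08 in *Thrb*-KO libraries (95% interval −0.29 to 0.12). Of the other 4 tested genes of the Prader-Willi cluster, none passed between the genotypes in either condition. Of these, *Snrpn* and *Snurf* had the same mean and SD in every group and are not separate measurements.

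*Gnas*, the alpha subunit of the stimulatory G protein that couples pituitary receptors to cyclic AMP, is known to be expressed mainly from the maternal copy in the pituitary. Its level was 5134, 5169, 6298 and 5926 CPM in hypothyroid WT libraries. In hyperthyroid WT libraries it was 3785, 4162, 3558 and 5765 CPM, so 3 of the 4 lay below the hypothyroid range. The log2 difference of −0.40 (SE 0.14, limma adjusted p = 0.0553) did not pass, and with the replicate number as a block its adjusted p was 0.0171, under the fold limit. Hypothyroid *Thrb*-KO libraries held 3966, 4098, 4422, 4725 and 4656 CPM, all below the hypothyroid WT libraries, and this did not pass the test either (log2 difference −0.36, adjusted p = 0.134, and 0.0370 with the block, under the fold limit). Of the 9 listed *Gnas* transcripts, 7 had group means between 3963 and 4318 CPM in hyperthyroid WT libraries, and NM_010309 and NM_201618 had identical values in all 18 libraries. The other 2 were NM_019690, with a WT response of 0.08, and NM_201617, with 0.15, and neither passed. *Gnas* also shares 11117 bp with the antisense *Nespas* and 16394 bp with AF085738 on the opposite strand.

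*Grb10*, an adaptor that restrains signalling by the insulin and IGF receptors, lay between 57.4 and 90.6 CPM in all 18 libraries. The 4 groups overlapped, with a WT response of −0.16 (95% interval −0.39 to 0.07) and a *Thrb*-KO response of 0.03 (95% interval −0.18 to 0.24). *Igf2*, the growth factor whose signalling *Grb10* limits, was at 12.3 to 25.4 CPM in all libraries. *Igf2* shares 7124 bp with *Igf2as* on the opposite strand. Its WT response was 0.01 (95% interval −0.35 to 0.37) and its *Thrb*-KO response −0.24 (95% interval −0.56 to 0.08). The hypothyroid *Thrb*-KO mean of 22.1 ± 1.79 CPM (n = 5) against the WT mean of 17.0 ± 4.14 CPM (n = 4) did not pass (log2 difference 0.38, limma adjusted p = 0.198). In replicates 3 to 5 alone it did (0.63, limma adjusted p = 0.0269). *H19*, the maternally expressed non-coding RNA beside *Igf2*, had the lowest counts of the 10, with 24 to 264 reads and 1.12 to 7.53 CPM. Its intervals were the widest, from −0.81 to 0.50 for the WT response and from −1.12 to 0.06 for the *Thrb*-KO response. Its highest values, up to 7.53 CPM, were in replicates 1 and 2, and its lowest, 1.12 CPM, was in replicates 3 to 5.

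**Figure D2:**
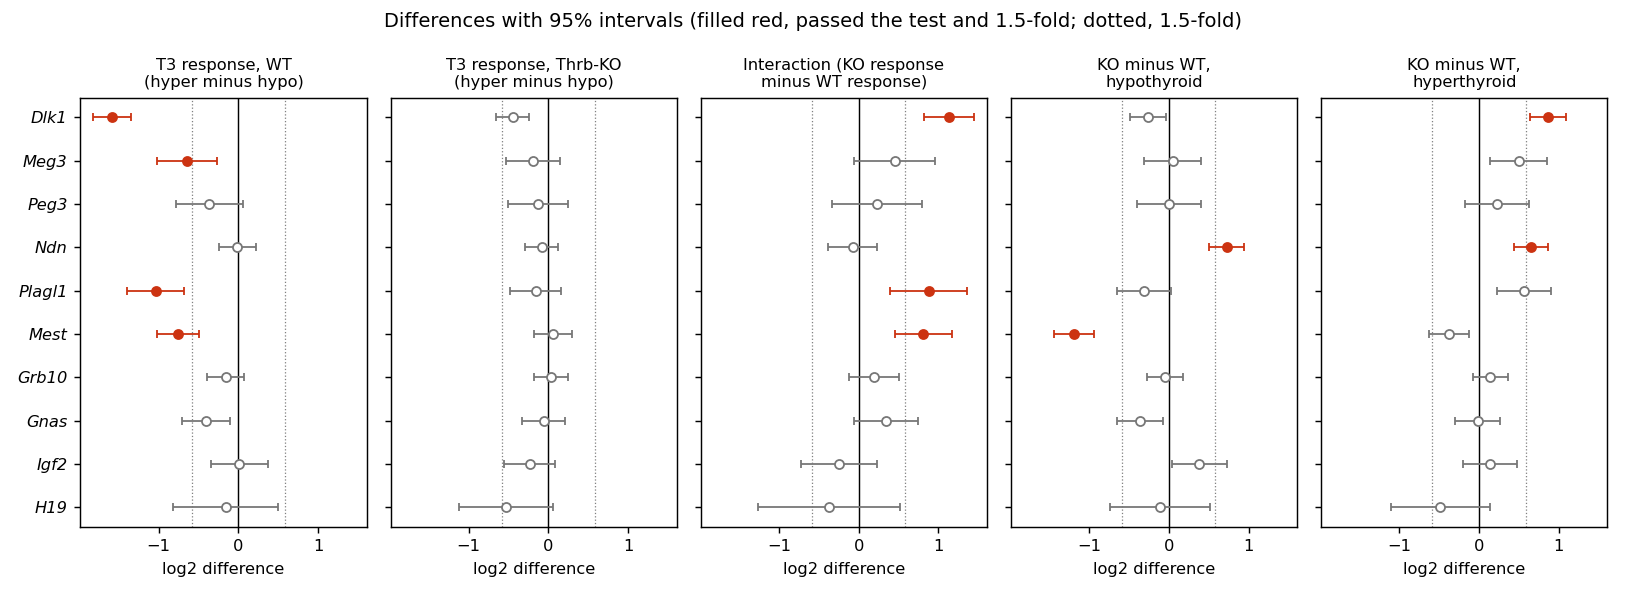
Log2 differences (x axis, log2(CPM + 1) scale) with 95% intervals for the 10 imprinted genes (y axis) in the 5 comparisons, from limma on 18 libraries. Filled red points passed the adjusted p of 0.05 and the 1.5-fold limit (dotted lines). The WT panel has red points at −1.58 for *Dlk1*, −1.04 for *Plagl1*, −0.75 for *Mest* and −0.64 for *Meg3*, and the *Thrb*-KO panel has none.

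Counted over the 10 genes, 4 fell with T3 in WT libraries (*Dlk1*, *Plagl1*, *Mest* and *Meg3*) and none rose, against 9.46% of all tested genes called in either direction and 5.59% called lower. The *Meg3* call was lost with TMM scaling, and edgeR and DESeq2 each called 3 of the 10. The median log2 difference was −0.38 over the 10 and −0.04 over all tested genes. In *Thrb*-KO libraries limma called 0 of the 10, where 1.01% of all genes were called. There 1 gene, *Dlk1*, had an unadjusted p under 0.05, and its limma adjusted p of 0.0199 passed as well, with the difference under the fold limit. EdgeR and DESeq2 called 0 too. The difference between the responses was called for 3, *Dlk1*, *Plagl1* and *Mest*, with a positive difference and no called fall in *Thrb*-KO libraries, against 4.26% of all genes in either direction and 2.48% with a positive one. Between the genotypes 2 were called in the hypothyroid condition, *Ndn* higher (1.01% of all genes) and *Mest* lower (2.01%), against 3.02% in either direction. In the hyperthyroid condition 2 were called, *Dlk1* and *Ndn*, both higher in *Thrb*-KO libraries, against 4.86% in either direction and 2.54% higher. With TMM scaling, edgeR or DESeq2 *Ndn* was under the fold limit in that comparison, leaving 1. Groups that did not overlap were counted as well. With T3, 3 of the 10 genes were lower in every WT library (11.7% of all genes) and 2 in every *Thrb*-KO library (3.53%). In hypothyroid *Thrb*-KO against WT libraries 1 was higher throughout (7.6% of all genes) and 3 lower (6.7%), and in the hyperthyroid condition 2 were higher (7.61%). The hypothyroid groups are shared between the T3 and genotype comparisons, as are the hyperthyroid ones, so the counts are not independent of each other. The 10 genes were chosen with earlier results of these data known, and the counts describe them only.

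Levels of cell type markers moved with T3 as well. The paper reports *Gh* and *Prl* as induced and *Tshb* and *Trhr* as suppressed by T3, so their levels are not counts of cells. The 3 thyrotroph markers (*Tshb*, *Trhr* and *Dio2*) summed to 3941 to 7701 CPM in hypothyroid and 82.2 to 462 CPM in hyperthyroid WT libraries, and all 3 fell in both genotypes. The 2 somatotroph markers summed to 48444 to 66337 CPM in hypothyroid and 87484 to 159203 CPM in hyperthyroid WT libraries, where *Gh* rose. The 2 lactotroph markers summed to 5951 to 9436 and 14667 to 53271 CPM, and *Prl* rose in both genotypes. In each of these 3 lists hyperthyroid WT replicate 3 was the highest of its group, and without it the upper ends were 314 CPM for thyrotroph, 112261 CPM for somatotroph and 27033 CPM for lactotroph markers. In *Thrb*-KO libraries the thyrotroph sums were 4000 to 5480 CPM hypothyroid and 291 to 348 CPM hyperthyroid, the somatotroph sums 57874 to 73859 and 83010 to 115091 CPM, and the lactotroph sums 4818 to 6012 and 12148 to 20527 CPM. The thyrotroph sums are mostly *Tshb* in the hypothyroid groups. In hyperthyroid libraries *Tshb* was at 40.5 to 422 CPM in WT and 84.9 to 169 CPM in *Thrb*-KO. Its hyperthyroid *Thrb*-KO mean, 136 ± 31.1 CPM (SD, n = 5), was below that of *Dio2*. The other markers of that list differed between the genotypes. *Dio2*, the deiodinase that makes T3, was at 1069 ± 145 and 36.9 ± 2.80 CPM in hypothyroid and hyperthyroid WT libraries (SD, n = 4) and at 689 ± 87.4 and 172 ± 26.0 CPM in *Thrb*-KO libraries (n = 5). Its responses differed by 2.81 on the log2 scale (limma adjusted p = 1.00e-08), and those of *Trhr*, the receptor for thyrotropin-releasing hormone, by 2.04 (limma adjusted p = 4.99e-07). Both were lower in hypothyroid and higher in hyperthyroid *Thrb*-KO than WT libraries. Of the 6 stromal markers *Col1a1* and *Col3a1* fell with T3 in WT libraries, with sums of 259 to 378 and 158 to 304 CPM (247 to 304 CPM without hyperthyroid WT replicate 3), and *Col1a2* was lower in hypothyroid *Thrb*-KO libraries (225 to 269 CPM). The 4 immune markers summed to 65.8 to 73.5 CPM in hypothyroid WT and 36.3 to 45.1 CPM in hypothyroid *Thrb*-KO libraries, beside the lower *Mest* and higher *Ndn* there, and *Csf1r* and *C1qa* were lower. The hyperthyroid sums of the immune list were 45.5 to 76.2 CPM in WT and 38.5 to 46.9 CPM in *Thrb*-KO libraries, where *C1qa* was lower. *Pcsk2* of the melanotroph list was lower in hypothyroid *Thrb*-KO libraries (sums of 246 to 383 against 379 to 534 CPM in WT). These sums are mostly *Pcsk2*, and *Pax7* of the same list was at 34.2 ± 2.88 CPM (SD, n = 5) against 34.4 ± 3.87 CPM (n = 4) in WT. *Aldh1a2* of the stem cell list was lower in hyperthyroid *Thrb*-KO libraries (sums of 57.9 to 73.9 against 82.6 to 97.2 CPM in WT). No tested gonadotroph, corticotroph, posterior lobe, endothelial, red blood cell or adjacent brain marker passed in any of the 5 comparisons. The hormone markers of the pituitary were present in every group. The part of these shifts in the results for the 10 genes was not tested.

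A wider list of 78 imprinted genes, grouped by cluster, held 77 in the table and 61 that were tested, the 10 included and *Snrpn* and *Snurf* counted separately. In WT libraries 18 of the 61 fell with T3 and 2 rose, and the median log2 difference was −0.19. Over all tested genes 5.59% fell, 9.46% were called in either direction, and the median was −0.04. The 2 that rose were *Nnat*, a proteolipid of neuroendocrine cells (log2 difference 0.96, SE 0.14), and *Sfmbt2*, a Polycomb protein (0.65, SE 0.21). In the *Peg10* cluster 4 of 6 fell, against the same 5.59%. *Peg10*, a retrotransposon-derived gene, went from 1263 to 1969 CPM to 106 to 187 CPM, a fall by 3.34 on the log2 scale (SE 0.21). *Asb4*, which recruits ubiquitin ligases, went from 272 to 370 CPM to 46.7 to 68.3 CPM, a fall by 2.56 (SE 0.12), and the paraoxonase genes *Pon2* and *Pon3* fell by 1.28 and 0.61. A T3-regulated ATAC peak lay 2744 bp upstream of *Asb4*. Elsewhere *Tnfrsf23* fell by 1.98, *Adam23* by 1.50, *Kcnq1* by 0.85, *Igf2r* by 0.77 and *Atp10a* by 0.69. *Th* of the wider list was not above 1 CPM in every library and so was not tested. It was at 16.1 to 28.6 CPM in hypothyroid and 0.654 to 1.24 CPM in hyperthyroid WT libraries. In *Thrb*-KO libraries it was at 1.51 to 2.00 CPM and 0.557 to 1.43 CPM.

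In *Thrb*-KO libraries *Peg10* was the only gene of the 61 to pass, where 1.01% of all tested genes did, with a fall by 1.91 on the log2 scale (SE 0.19, limma adjusted p = 3.78e-06). The responses of 12 genes differed between the genotypes, against 4.26% of all tested genes. All but *Nnat* (−0.68) had a positive difference, from 0.67 for *Copg2* to 2.21 for *Asb4*. In the hypothyroid condition 10 of the 61 differed between the genotypes (3.02% of all tested genes), 8 of them lower in *Thrb*-KO libraries (2.01%), among them *Tnfrsf23* (−1.67), *Pon2* (−1.05) and *Asb4* (−1.03). *Peg10*, *Kcnq1* and *Kcnk9* were lower as well. *Rasgrf1*, an exchange factor for Ras known for its effect on growth, was the only one other than *Ndn* that was higher, by 0.90 (SE 0.09). In the hyperthyroid condition 10 differed (4.86% of all tested genes), 9 of them higher (2.54%). *Asb4* (1.17), *Mirg* (1.14), *Rtl1* (1.11), *Rasgrf1* (0.99), *Adam23* (0.97), *Rian* (0.76) and *Peg10* (0.67) were higher beside *Dlk1* and *Ndn*. *Kcnk9*, a potassium channel, was lower by 1.10. *Rasgrf1* and *Kcnk9* were the 2 genes besides *Ndn* that differed in the same direction between the genotypes in both conditions, and none of the 3 passed for T3.

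**Figure D3:**
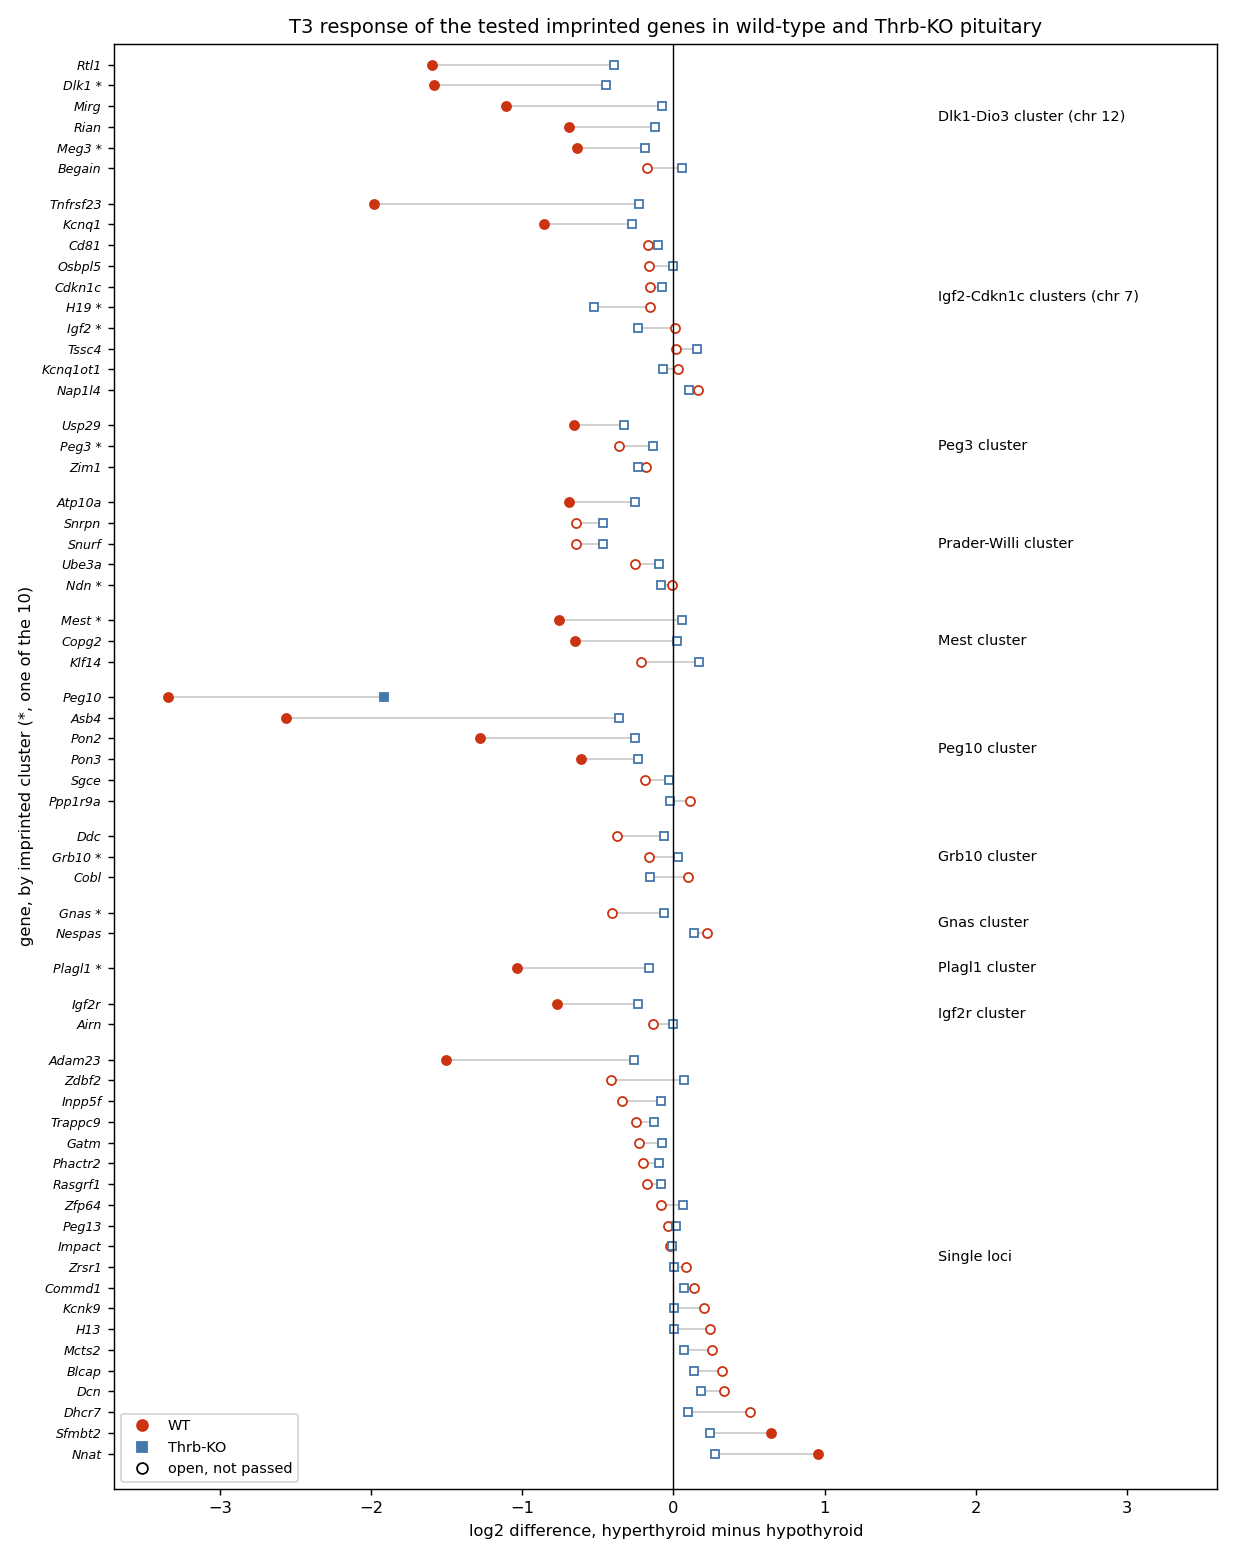
Log2 difference of hyperthyroid minus hypothyroid (x axis) for the 61 tested imprinted genes (y axis, by cluster, * for the 10 genes) in WT (red circles) and *Thrb*-KO libraries (blue squares). Filled symbols passed the test and the fold limit. In WT libraries *Peg10* lies at −3.34 and *Nnat* at 0.96, and *Peg10* at −1.91 is the only filled square.

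Receptor peaks were counted within 20 kb of the annotated gene, on mm9. In the pituitary TRβ-HAB list 5 of the 10 genes had at least 1 peak (*Dlk1*, *Peg3*, *Mest*, *Grb10* and *Gnas*), against 41.2% of the 12772 tested genes with a position. A peak overlapped the gene itself in 3 (*Mest*, *Grb10* and *Gnas*), against 23.5%. Of the 5 genes with a peak within 20 kb, *Dlk1* and *Mest* fell with T3 in WT libraries, and *Peg3*, *Grb10* and *Gnas* did not pass. *Meg3* and *Plagl1* fell and had none, and *Ndn*, *Igf2* and *H19* had none either. The nearest pituitary peak was 31061 bp away for *Meg3*, 127951 bp for *Plagl1* and 969787 bp for *Ndn*. The *Mest* peak lay in a coding exon at chr6:30688101-30688350, with 13 HAB;BirA reads and 1 BirA read, 38 bp from an alternative annotated start and 14554 bp from the first. *Grb10* (chromosome 11, 11830511 to 11938686, minus strand) held 4 peaks inside the gene, with 29, 13, 30 and 12 HAB;BirA reads against 0, 1, 5 and 0 BirA reads. The peak with the most reads was in a *Gnas* intron at chr2:174141651-174142450, with 106 HAB;BirA and 4 BirA reads, and 1.04% of the list had more. None of the 9 peaks within 20 kb of the 10 genes held a DR4 with at most 3 mismatches, against 55.0% of the pituitary list, which says only that these letters are not in those windows. The peaks were called on merged libraries, so there is no error between replicates.

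In the cerebral cortex list none of the 10 genes had a peak within 20 kb, where 34.9% of the tested genes had one. The T3-regulated ATAC list had the *Peg3* peak only, where 7.71% of the tested genes had a peak. Within 100 kb the cortex list held a peak for 3 (*Dlk1*, *Plagl1* and *Mest*, against 63% of the tested genes), and the ATAC list for 2, *Peg3* and *Plagl1*, the latter 42799 bp upstream (18.2%).

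**Figure D4:**
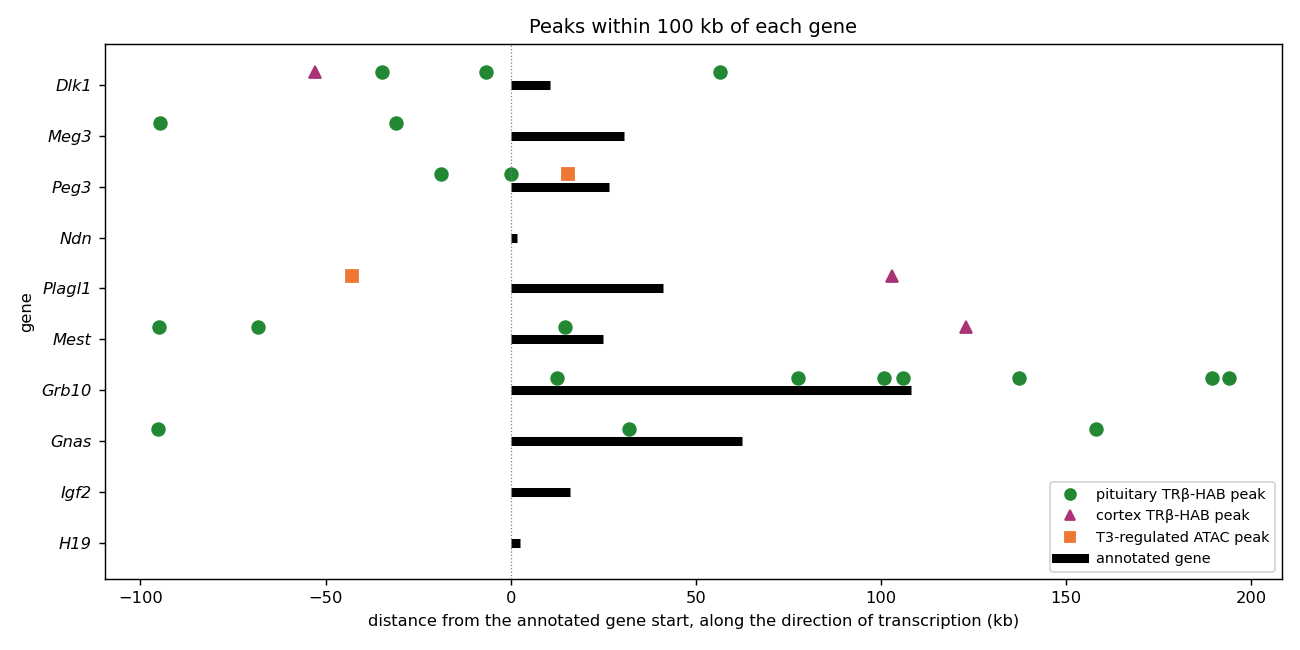
Position of peaks within 100 kb of each of the 10 genes (y axis), as the distance in kb from the annotated start along the direction of transcription (x axis). Black bars are the annotated genes, green circles pituitary TRβ-HAB peaks, purple triangles cortex TRβ-HAB peaks and orange squares T3-regulated ATAC peaks. *Grb10* carries 4 green circles inside the gene, and *Ndn*, *Igf2* and *H19* carry no symbol.

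Across the 18 libraries the tested genes whose log2(CPM + 1) followed that of *Dlk1* most closely were *Gpc4*, *Kcnmb4*, *Phyhipl*, *Stard5* and *Eno2*, with Pearson r from 0.966 to 0.977. The 18 points share their 4 groups, so the likeness is mainly that of the group means. *Gpc4*, a cell surface proteoglycan, differed by −1.72 with T3 in WT and by −0.48 in *Thrb*-KO libraries. None of the 5 is in the list of imprinted genes.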

How the data were processed

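RNA-seq of 18 libraries was analysed, with 3 lists of peaks. Per transcript of the RefSeq annotation (mm9), the authors deposited CPM values from single-end reads aligned with BBMap. The whole reads behind every CPM value were recovered (tolerance 0.01 read) and 100% were whole. A read matching several transcripts is counted in each. The authors deposited ChAP peaks called with SICER 1.1 on merged libraries, with read counts of HAB;BirA and BirA, p-values and a fold ratio, and ATAC peaks with an adjusted p-value. The meaning of the ChAP columns was read from the SICER layout, since those lists have no header.

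One model of the 4 groups was fitted to log2(CPM + 1) with limma 3.58.1 (R 4.3.3, eBayes with a trend) for genes above 1 CPM in all 18 libraries. Benjamini-Hochberg adjustment ran over 13145 genes, and a gene was called at adjusted p under 0.05 and at least 1.5-fold. Folds are on the log2(CPM + 1) scale and understate changes of low genes. Intervals are 95%. Named were the 10 genes, *Thrb*, called genes of the imprinted list with *Dio3* and *Rtl1*, called markers and the 5 genes closest to *Dlk1*. *Lars2*, *Begain* and *Th* were named after their values were seen. The fits were tested on simulated data. Replicates are pooled libraries, and p-values measure the spread between them. Same-numbered libraries of the 2 conditions deviated together (r = 0.255 to 0.815 in all 9 pairs), which was read from the data and not from the labels. For WT replicates 3 and 4 and *Thrb*-KO replicates 2 and 3 the best-correlated library of the other condition carried another number. It always lay in the same set, replicates 1 and 2 or replicates 3 to 5. The sets are therefore seen in the data, and a number-by-number pairing is not shown. Alternatives included edgeR 4.0.16 and DESeq2 1.42.0 on the recovered reads, a replicate block, library sets, and each library left out. Single-transcript fits and marker sums without hyperthyroid WT replicate 3 were added after seeing the data. Genes were placed on mm9 with GENCODE vM1 (97.2% of those tested). The genes, lists and tests were chosen with earlier results of these data known. Histone ChIP-seq and ChAP-seq of treated mice were not analysed here. The sequence of 1 *Dlk1* peak is not reported here.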

Additional observations from a re-analysis of the deposited data

Results flagged for a closer look

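Of 40 sets of libraries (10 genes in 4 groups), 2 held a library far from the others, and chance gives about 1 in 20. *Meg3* was at 6297 CPM in hyperthyroid WT replicate 3, where the other 3 libraries lay between 2942 and 3483 CPM. *Igf2* was at 25.4 CPM in hyperthyroid *Thrb*-KO replicate 1, where the other 4 lay between 16.8 and 18.0 CPM.

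The T3 response, hyperthyroid minus hypothyroid, differed between the genotypes for 3 of the 10 genes in limma's interaction term. *Thrb*-KO minus WT was 1.13 for *Dlk1* (adjusted p = 0.000118), 0.88 for *Plagl1* (adjusted p = 0.0282) and 0.81 for *Mest* (adjusted p = 0.00692) on the log2 scale.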

How the results depend on the processing

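The calls for *Dlk1*, *Plagl1* and *Mest* in WT libraries, for *Dlk1* between the hyperthyroid groups, and for *Ndn* and *Mest* between the hypothyroid groups held under every alternative run. So did the *Dlk1* interaction. The replicate block, for instance adjusted p = 9.22e-09 for *Dlk1* in WT libraries (log2 difference −1.58), changed no call of the 10 genes. *Meg3* in WT libraries lost its call with no filter on low values, TMM scaling, edgeR, DESeq2, replicates 3 to 5 alone, and without hypothyroid WT replicate 4 or hyperthyroid WT replicates 2 or 4. *Plagl1* lost its interaction call with no filter (limma adjusted p = 0.0527) and without hypothyroid WT replicate 1 or 2, hypothyroid *Thrb*-KO replicate 4, or hyperthyroid *Thrb*-KO replicate 2 or 4, and *Mest* its own in replicates 1 and 2 alone. *Plagl1* between the hyperthyroid groups became a call with the library set as a block, in replicates 3 to 5, and without hyperthyroid WT replicate 1 or 2 or hyperthyroid *Thrb*-KO replicate 3. *Igf2* between the hypothyroid groups became one in replicates 3 to 5, *Meg3* in the interaction and between the hyperthyroid groups in replicates 1 and 2 and without hyperthyroid WT replicate 3, and *Mest* between the hyperthyroid groups in replicates 1 and 2. In hyperthyroid *Thrb*-KO against WT, the count of 2 became 1 with TMM scaling, both edgeR fits and DESeq2, since *Ndn* fell under the fold limit, and 4 in replicates 1 and 2 alone or with no fold limit. *Ndn* was also under the fold limit there in replicates 3 to 5 alone (0.52) and without hyperthyroid WT replicate 1 (0.57). In those runs *Plagl1* became a call. With no fold limit 1 of the 10 was called for T3 in *Thrb*-KO libraries. Of the wider list, the 1 called for T3 in *Thrb*-KO libraries became 2 with CPM above 1 in at least 4 libraries, and 3 in replicates 1 and 2 alone or with no fold limit. With no fold limit the wider list held 16 calls between the hypothyroid and 17 between the hyperthyroid groups. Leaving out 1 library gave 3 to 4, 0, 2 to 4, 2 and 2 to 3 of the 10 called in the 5 comparisons. Pituitary peaks overlapped 3 genes, and within 100 kb 3 had a cortex and 2 an ATAC peak.

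Values near 0 that did not pass changed sign. For *Ndn* in WT libraries they were 0.0544 with TMM scaling, 0.0770 with edgeR, 0.0817 with edgeR and DESeq2 size factors, 0.0812 with DESeq2, and 0.0883 in replicates 3 to 5. *Peg3* between the hypothyroid groups gave −0.0284 with TMM scaling, −0.0402 with edgeR, −0.0374 with edgeR and DESeq2 size factors and with DESeq2, and −0.10 in replicates 1 and 2. In replicates 1 and 2 *Igf2* gave −0.10 in WT, *Mest* −0.26 for T3 in *Thrb*-KO and *Ndn* 0.00582 in the interaction. In replicates 3 to 5 *H19* gave 0.0223 in WT, *Grb10* −0.15 for T3 in *Thrb*-KO, and between the hypothyroid groups *Meg3* gave −0.0156, *Grb10* 0.0802 and *H19* 0.27. Leaving out 1 library gave −0.10 to 0.0739 for *Ndn*, −0.11 to 0.15 for *Igf2* and −0.39 to 0.13 for *H19* in WT. It gave −0.00513 to 0.12 for *Mest* and −0.0252 to 0.10 for *Grb10* for T3 in *Thrb*-KO, and −0.16 to 0.0156 for *Ndn* in the interaction. Between the hypothyroid groups it gave −0.0136 to 0.16 for *Meg3*, −0.10 to 0.10 for *Peg3* and −0.32 to 0.17 for *H19*, and between the hyperthyroid groups −0.10 to 0.13 for *Gnas* and −0.00315 to 0.26 for *Igf2*. TMM scaling moved the median of all genes by −0.08 to 0.06. The causes of these changes were not tested.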
